A study of Rattus norvegicus with 16 samples.

Results

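The extracellular matrix genes described here are 41 genes of the rat: collagens and other matrix proteins, the enzymes that cross-link or cut matrix, the growth factors and receptors that act on matrix-making cells, and markers of fibroblasts and hepatic stellate cells. They were chosen by gene name out of 32623 gene records. The rule used no measured value, but the genes were listed with earlier results of these data known. Of the 41, 39 were found under the listed name. Ccn2 was found under its older name Ctgf, and Col6a3 under the clone-based name AABR07068316.1, which the table describes as the collagen type VI alpha 3 chain. Collagens are laid down as fibrils (types I, III and V), as the networks of basement membranes (types IV, XV and XVIII with laminins and nidogen), or as microfibrils and fibril-associated chains (types VI and XIV). In the liver, hepatic stellate cells store retinoid at rest and, once activated, become contractile cells that make much of the scar matrix. In bone marrow most type I collagen comes from bone-forming osteoblasts and their precursors.

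The samples came from female Big Blue rats, which carry a transgene vector with the cII and lacI reporter genes used to count mutations, in control and exposed animals alike. Rats were 6 weeks old on arrival and acclimatised for 1 week, and were then gavaged daily for 28 days with 0 (control) or 10 mg/kg/day NDEA. NDEA is N-nitrosodiethylamine, a nitrosamine that liver enzymes turn into a DNA-alkylating agent. Liver and bone marrow were taken 3 days after the last dose. There were 4 libraries in each of 4 groups, from dose groups of 6 rats held 3 to a cage. The labels give no animal for a library and no promoter of the transgene. The p-values measure the spread between libraries, and each library is a bulk tissue, so fewer cells of a type and less RNA per cell cannot be told apart.

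RNA was read with a 3′-end library kit, which yields about 1 read position per transcript, so that a count does not grow with gene length. Libraries held 5000844 to 6863592 counts in liver and 2162182 to 5705705 in marrow, where control 1 was the shallowest. Levels are given as CPM, the usual counts scaled to library size, with library sizes corrected by the trimmed mean of M-values (TMM). This correction was made within each tissue, so CPM of liver and marrow are not on exactly the same scale. Markers of hepatocytes summed to between 120410 and 163360 CPM in liver libraries, against 853 to 1798 in marrow, and erythroid markers to between 118640 and 197850 CPM in marrow, against 1091 to 3846 in liver. The share of counts from mitochondrial genes was 16.2% to 20.6% in control liver and 20.1% to 22.4% in NDEA liver. In marrow that share was 6.41% to 13.0% in controls and 8.37% to 15.8% after NDEA.

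Of the 41 genes, 33 had enough counts to be tested in liver, 28 in marrow, 27 in both and 7 in neither. A gene was tested where at least 4 of 8 libraries reached 10 counts at the depth of the median library (1.64 CPM in liver, 1.94 in marrow). Col1a2, the second chain of type I collagen, and Col15a1 had 0 counts in all 16 libraries, which allows a level of up to 0.0345 CPM (3 counts of the total, counting error only). This stood beside 602 to 60568 counts per group for Col1a1, the partner chain. Whether these records cover the 3′ ends that the kit reads was not tested. Postn, a matricellular protein of remodelling tissue, was at 0 in all liver libraries, and Lrat, the retinoid-esterifying enzyme of stellate cells, at 0 in all marrow libraries. Lama4, Col6a1, Thbs2 and Des were at low counts in both tissues and were tested in neither. As a share of all counts, the 41 genes together made up 0.25% to 0.264% of control liver, 0.281% to 0.293% of NDEA liver, 0.329% to 0.794% of control marrow and 0.223% to 0.461% of NDEA marrow. In control liver 49.5% to 53.5% of these matrix counts came from Fn1, and in control marrow 61.9% to 74.7% came from Col1a1.

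The first comparison asked how the matrix genes of the liver differed after 28 days of NDEA. Transcripts of the fibrillar collagen Col3a1, the basement membrane genes Col4a1 and Nid1, the microfibril gene Fbn1, the proteoglycan Dcn and the intermediate filament gene Vim rose by 1.72- to 2.58-fold, while Fn1 fell to 0.755-fold. These were 6 genes higher and 1 lower of 33 tested, or 21.2%, by limma's voom test at an adjusted p under 0.05, against 6.61% of the 9668 genes tested (2.87% higher, 3.74% lower). The log2 estimate was above 0 for 29 of the 33 and below 0 for 4, with a median of 0.78, against 51.2% of all tested genes above 0 and a median of 0.01. At an unadjusted p under 0.05 stood 13 of the 33, against 18.7% of all genes. NDEA libraries lay wholly above the controls for 10 of the 33 and wholly below for 1, against 6.54% and 5.98% of all genes. Lox was tested only because its NDEA libraries reached the filter level, so its place in these counts was bound to one direction. Col4a2 and Col5a1, with 1 control library each at that level, also needed their NDEA libraries to be tested. So did Col5a2 and Loxl1, with 2 control libraries each, and Tagln, with 3. The estimates of all of these were above 0, so the counts and the median above depend in part on the filter. With the mitochondrial share as a covariate none of the 7 called genes kept its call. The log2 estimates were then 1.31 for Vim, 1.23 for Nid1 and 0.78 for Col3a1, 0.73 for Fbn1, 0.62 for Dcn, 0.40 for Col4a1 and −0.28 for Fn1. The median of the 33 was 0.49, and calls over all genes went from 277 higher and 362 lower to 53 and 95. All 7 kept their sign, and in a fit of all 16 libraries together only Col4a1 and Vim were called.

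**Figure D1:**
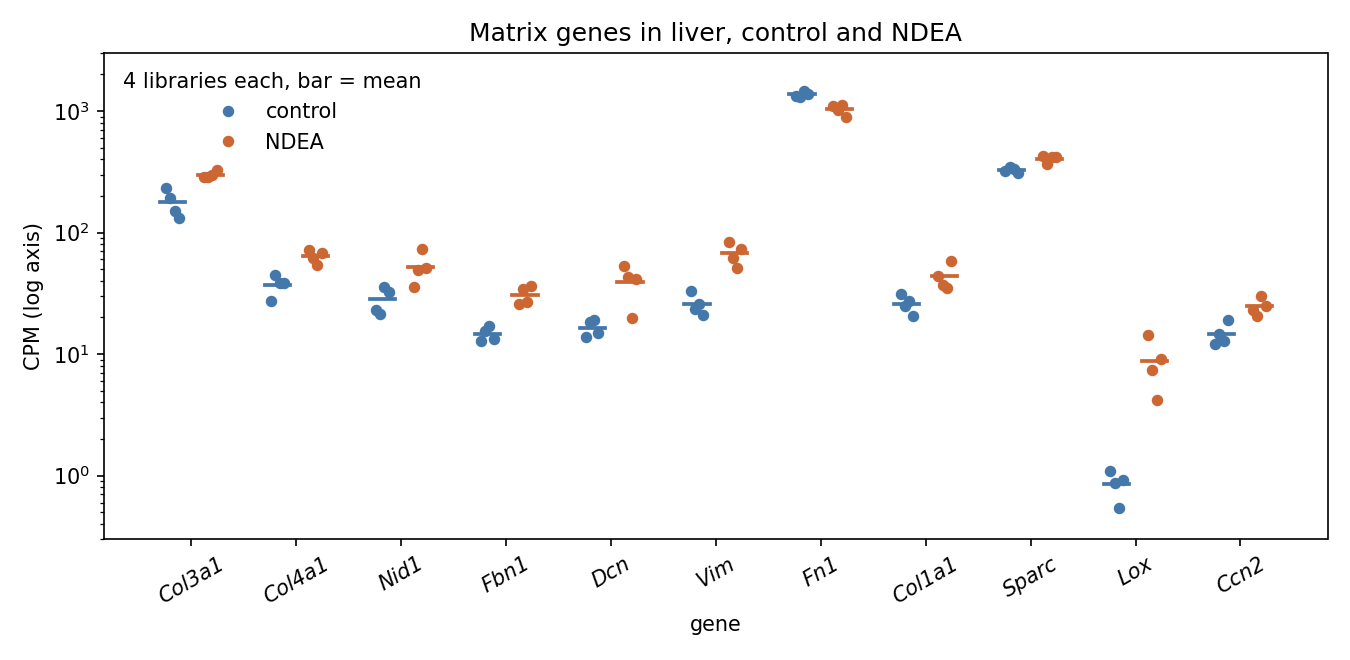
Levels of 11 matrix genes in liver on a log axis of CPM: one point per library, control and NDEA side by side, with bars at the group means. The genes are the 7 called ones and the 4 others whose 4 NDEA libraries all lie above the 4 controls; Fn1 is the one gene whose NDEA points lie below.

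Among the fibrillar collagens, Col3a1, which forms the fine reticulin fibres of the liver, was the most abundant in liver. Its control libraries held 230, 194, 151 and 132 CPM and its NDEA libraries 287, 286, 298 and 324. The groups did not overlap, and the NDEA libraries were closer together (177 ± 44.0 against 299 ± 17.9, SD, n = 4 each). The fitted log2 change was 0.78 (SE 0.14, limma adjusted p = 0.000968). Col1a1, the main chain of scar and bone collagen, had 31.1, 24.7, 27.2 and 20.5 CPM in controls and 43.9, 37.2, 35.0 and 58.8 after NDEA. All 4 NDEA libraries lay above all 4 controls, yet its log2 change of 0.74 (SE 0.24) missed the threshold at a limma adjusted p of 0.0749. By limma it was called without NDEA 3 (adjusted p = 0.0452) and under library totals alone, within a range of 0.0389 to 0.677 over the alternatives. The type V chains Col5a1 and Col5a2, which start collagen fibrils, stayed between 0 and 9.02 CPM with overlapping groups. The record of Col3a1 stands at position 52023295 of chromosome 9 on the deposited coordinates, whose build is not given in the sources used here.

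Basement membranes line the vessels, ducts and nerves of the liver, and 2 of their 6 tested genes rose. Col4a1, a chain of the type IV network, was at 27.3, 44.3, 38.6 and 38.4 CPM in controls and at 71.8, 61.5, 54.1 and 67.6 after NDEA. Nid1, the nidogen that links type IV collagen to laminin, was at 23.1, 21.4, 35.5 and 32.6 CPM in controls and at 35.9, 49.4, 73.7 and 50.7 after NDEA. The groups were apart for both, widely for Col4a1 and by a hair for Nid1, where the lowest NDEA and highest control libraries nearly met. The log2 changes were 0.80 (SE 0.20, adjusted p = 0.0157) for Col4a1 and 0.90 (SE 0.26, adjusted p = 0.0343) for Nid1 by limma. Nid1 lost its call in 6 of 8 fits that left out a library, with adjusted p up to 0.112 there, and Col4a1 only without control 1 (adjusted p = 0.0797). Over all alternatives the adjusted p ran from 0.00622 to 0.719 for Col4a1 and from 0.00902 to 0.213 for Nid1. Col4a2, the partner chain of Col4a1, had only 27 counts in the control group and 67 after NDEA, and its log2 estimate of 3.12 had an SE of 1.52 (adjusted p = 0.273). Col18a1, which carries the endostatin fragment and is made by hepatocytes among other cells, was at 285 ± 11.2 CPM in controls and 274 ± 47.0 after NDEA, with overlapping groups. The laminin chains Lamb1 and Lamc1 had log2 estimates of 0.86 and 0.61 with limma adjusted p of 0.39 and 0.511.

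The promoter sequences of the called genes were looked up in RefSeq, build GRCr8, where 27 of the 41 genes had a window from 250 bases before to 50 after the gene start. The windows of Col4a1 and Col4a2 share 176 bases, because the genes lie head to head with starts 77 bases apart. The stretch between the starts is therefore shown once, with about 30 bases of each transcript at its ends. Nid1 and Vim are shown because they rose and have a window. The window of Fbn1 held none of the 3 motifs that are marked here and is not shown. Capitals mark the matches found on either strand to the CCAAT box, to the TATA box (searched for as TATAAA) and to the GC box (searched for as GGGCGG). A match on the minus strand shows here as its reverse complement. All are written 5′ to 3′ on the plus strand.
Col4a1 and Col4a2, chr16:84885490-84885626, plus strand, 137 bases: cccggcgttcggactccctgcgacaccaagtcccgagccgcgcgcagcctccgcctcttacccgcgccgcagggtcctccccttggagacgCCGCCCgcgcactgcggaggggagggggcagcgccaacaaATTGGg
Nid1, chr17:93069036-93069285, plus strand, the 250 bases before the start: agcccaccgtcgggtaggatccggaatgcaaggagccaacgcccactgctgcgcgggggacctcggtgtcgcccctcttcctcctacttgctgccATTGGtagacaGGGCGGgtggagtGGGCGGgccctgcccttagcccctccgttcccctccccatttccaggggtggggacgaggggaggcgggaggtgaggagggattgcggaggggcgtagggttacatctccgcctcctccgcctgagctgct
Vim, chr17:81577011-81577260, plus strand, the 250 bases before the start: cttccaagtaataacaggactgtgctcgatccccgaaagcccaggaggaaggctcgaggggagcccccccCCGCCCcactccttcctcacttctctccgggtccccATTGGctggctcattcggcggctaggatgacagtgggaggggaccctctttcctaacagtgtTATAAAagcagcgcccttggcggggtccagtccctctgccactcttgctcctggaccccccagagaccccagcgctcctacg
The pair shares a CCAAT match on the minus strand that lies 105 to 101 bases before the Col4a2 start and 24 to 28 bases past the Col4a1 start, and a GGGCGG match between them, while the liver groups held 850 and 1630 counts of Col4a1 against 27 and 67 of Col4a2. Vim carries a TATAAA match 82 to 77 bases before its start, and Nid1 has GGGCGG matches 144 to 139 and 131 to 126 bases before its start, just past a CCAAT match at 155 to 151. Over all 27 windows, CCAAT stood in 29.6% (37.5% of 33465 windows in the table), TATAAA in 18.5% (14.2%), GGGCGG in 48.1% (33.1%), the Smad element core CAGAC in 51.9% (50.1%) and the AP-1 motif TGANTCA in 7.4% (7.3%). The CArG box of serum response factor stood in 0 of the 27 windows and in 1.6% of all. The 27 windows had a median GC content of 61.0%, against 51.7% of all. These are matches of letters only. No sequence is shown for Col3a1, Fn1 and Dcn, whose windows are not in the table used.

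The chains of types VI and XIV had no called gene among 3 tested in liver. Col14a1, a fibril-associated collagen, was at 5.00 to 20.6 CPM in controls and at 18.6 to 24.5 after NDEA, with a log2 estimate of 1.02 (SE 0.37, limma adjusted p = 0.121). Col6a2 and Col6a3 both had estimates of 0.42 with overlapping groups.

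The glycoproteins split in direction. Fbn1, which builds the fibrillin microfibrils that hold latent TGF-beta, was at 12.8, 15.6, 16.9 and 13.3 CPM in controls and at 25.7, 34.2, 26.6 and 36.0 after NDEA. The groups were well apart, and the log2 change was 1.05 (SE 0.28, limma adjusted p = 0.0238). Fn1 encodes fibronectin, a matrix adhesion protein that hepatocytes also secrete into plasma, and its controls held 1330, 1309, 1463 and 1369 CPM. After NDEA its libraries held 1098, 1019, 1122 and 897 CPM, all below the lowest control, a fall by 0.41 on the log2 scale (SE 0.09, limma adjusted p = 0.00642). Fn1 thereby went from 49.5% to 53.5% of the matrix counts in controls to 33.7% to 39.8% after NDEA. Beside it, 7 of 13 tested hepatocyte markers fell and 3 rose, against 3.74% and 2.87% of all genes. Their summed level was 131690 to 163360 CPM in controls and 120410 to 143300 after NDEA. The part of this in the Fn1 result was not tested. Sparc, a collagen-binding protein, was at 318, 346, 334 and 307 CPM in controls and at 422, 367, 417 and 419 after NDEA, without overlap. Its log2 estimate of 0.32 (SE 0.11) did not pass at a limma adjusted p of 0.0750, and did so under library totals alone (0.0102, within 0.0102 to 0.624 over the alternatives). Fbn1 lost its call in 6 of 8 fits without 1 library, where the adjusted p reached 0.0807, and ranged from 0.0141 to 0.603 over all alternatives.

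Of the small leucine-rich proteoglycans, which coat collagen fibrils, Dcn (decorin) rose. Its controls held 13.7, 18.2, 18.9 and 14.9 CPM and its NDEA libraries 52.7, 43.3, 19.7 and 41.4. NDEA 3 sat just above the highest control, while the other NDEA libraries were well above. The log2 change was 1.16 (SE 0.33, limma adjusted p = 0.0352), and it was not called in 7 of 8 fits without 1 library (adjusted p up to 0.113; 0.000725 to 0.731 over all alternatives). Without NDEA 3 the call stood. Bgn (biglycan) was at 64.8 ± 18.1 CPM in controls and 95.01 ± 10.4 after NDEA, where control 1 at 89.6 overlapped the NDEA range of 84.8 to 107 (limma adjusted p = 0.0618). Lum had only 8 and 26 counts per group in liver.

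The cross-linking enzyme Lox, which joins collagen and elastin chains, was barely detected in control liver and clearly counted after NDEA. Its counts were 7, 5, 3 and 5 in controls and 93, 39, 30 and 61 after NDEA, or 1.09, 0.875, 0.541 and 0.922 CPM against 14.2, 7.41, 4.22 and 9.14. No control library came near the lowest NDEA library. The log2 estimate of 3.10 had a wide SE of 1.13 and a limma adjusted p of 0.115. It was called with no filter (0.0477), with limma's trend method (0.00908) and without NDEA 3 (0.0490), within 0.00908 to 0.669 over the alternatives. Loxl1 had 27 control and 81 NDEA counts with overlapping libraries.

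None of the 4 tested genes of matrix breakdown and its inhibitors was called in liver. The collagenases Mmp2 and Mmp14 had log2 estimates of 0.20 and −0.03. Timp1 and Timp2, which inhibit such enzymes, had estimates of 1.07 and 0.91 with the same limma adjusted p of 0.306. Among growth factors and receptors, Ccn2, a target and partner of TGF-beta, had 12.2, 14.5, 12.8 and 19.2 CPM in controls and 22.9, 20.7, 29.96 and 25.03 after NDEA. These did not overlap, and its estimate of 0.78 (SE 0.29) had an adjusted p of 0.127 by limma. Tgfb1, the ligand itself, was at 2.81 to 3.97 CPM in controls and at 2.60, 1.14, 8.58 and 8.99 after NDEA, so the NDEA libraries fell on both sides of the controls (adjusted p = 0.866, limma). Pdgfrb, a receptor of stellate cells and pericytes, was at 6.40, 6.48, 10.6 and 9.96 CPM in controls and at 13.3, 6.84, 11.7 and 6.45 after NDEA, an overlap throughout. Pdgfra had an estimate of 0.08.

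Vim, the intermediate filament protein of mesenchymal cells and of many blood and vessel cells, showed the largest change among the called genes. Controls held 32.9, 23.3, 25.8 and 20.8 CPM and NDEA libraries 83.1, 62.3, 50.9 and 72.7. Every NDEA library exceeded every control, with a log2 change of 1.37 (SE 0.24, 95% interval 0.88 to 1.86, limma adjusted p = 0.000507). Acta2, the smooth muscle actin that activated stellate cells gain, was at 8.28, 5.95, 3.97 and 1.84 CPM in controls and at 5.96, 13.1, 11.5 and 6.45 after NDEA. These groups overlapped, and the interval of its log2 change ran from −0.28 to 2.09 (limma adjusted p = 0.426). Lrat, which marks retinoid-storing stellate cells, was at 28.3, 21.5, 23.1 and 26.0 CPM in controls and at 20.3, 23.0, 32.6 and 34.0 after NDEA, with an interval of −0.40 to 0.67. Tagln and Myl9, of the contractile apparatus, had estimates of 0.84 and −0.19, and Des, a stellate cell filament in the rat, had 31 and 33 counts per group.

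**Figure D2:**
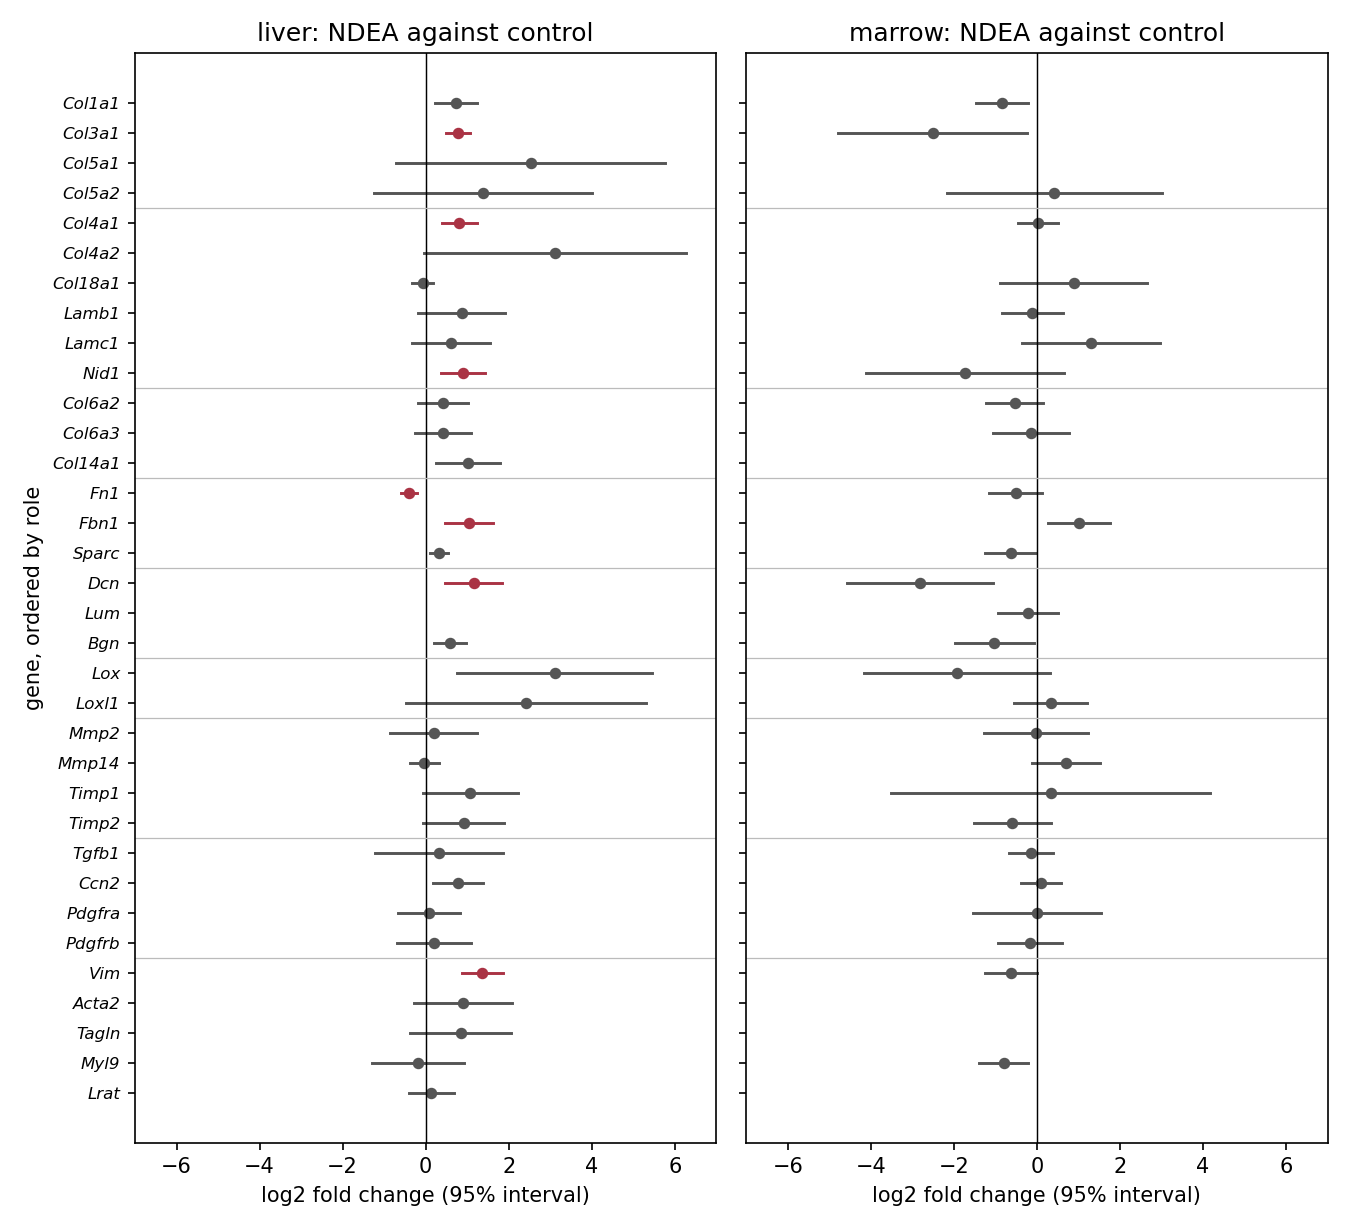
Fitted log2 change after NDEA in liver and in marrow for each of the matrix genes tested, with bars of the 95% interval, genes ordered by role, and called genes in red. Most liver points lie to the right of 0 with Fn1 at −0.41, while 18 of 28 marrow points lie to the left.

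Further genes of matrix assembly, breakdown and sensing were taken from lists of the pathway. Of 17 tested genes of collagen folding and processing, Serpinh1, the collagen chaperone, rose (28.5 ± 0.788 to 51.7 ± 10.3 CPM, limma adjusted p = 0.0251) and Furin, a proprotein convertase, fell (256 ± 39.7 to 175 ± 17.4, adjusted p = 0.0117). Of 16 other matrix proteins, the laminin chain Lama5 rose from 1.53 ± 1.78 to 14.5 ± 2.63 CPM (adjusted p = 0.0238) and Ecm1 fell from 96.6 ± 5.48 to 64.9 ± 7.65 (adjusted p = 0.0258), both by limma. Lama5 was at 0.156 to 4.15 CPM in controls, and it was tested only because its NDEA libraries reached the filter level of 1.64 CPM. Of 15 receptors for matrix, the laminin-binding integrin Itga6 rose from 6.14 ± 2.94 to 35.1 ± 6.07 CPM (adjusted p = 0.000589), the collagen receptor Ddr1 rose from 2.37 ± 1.27 to 12.0 ± 1.62 (adjusted p = 0.0429), and the syndecan Sdc2 fell from 469 ± 55.5 to 320 ± 29.4 (adjusted p = 0.00346). Of these 15 receptors 8 stood at an unadjusted p under 0.05, against 18.7% of all genes. Libraries were wholly apart for 6 higher and 2 lower, against 6.54% and 5.98% of all genes. Called were 11.8%, 12.5% and 20% of the tested genes of these 3 lists, against 6.61% of all genes. Their median log2 estimates were −0.14, 0.30 and 0.22. None was called of 5 other collagens, 2 further cross-linking genes, 17 proteases and inhibitors, or 25 genes of TGF-beta and PDGF signalling. Their median log2 changes were 0.31, 0.28, 0.16 and 0.03, against 0.01 over all genes. Of the 17 proteases and inhibitors, only Mmp12 had libraries wholly apart (0 to 1.25 CPM in controls, 1.99 to 20.3 after NDEA). Its log2 estimate of 5.56 (SE 1.87) had a limma adjusted p of 0.0819. It was tested only because its NDEA libraries reached the filter level.

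Markers of cell types that make or hold matrix stood beside these changes as follows, and their part in the results was not tested. Among the tested stellate cell markers, of which Lrat is one, Ednrb rose (11.5 ± 1.87 to 33.1 ± 7.94 CPM, limma adjusted p = 0.00417) and Ecm1 fell. Portal fibroblast markers summed to 459 to 640 CPM in controls and 397 to 524 after NDEA, with 0 of 6 tested called and Thy1, Gli1, Mfap4 and Pi16 at 0. Most of that sum was Dpt (528 ± 75.8 CPM in controls, 434 ± 54.3 after NDEA), whereas the 6 tested genes had a median log2 estimate of 1.78, 4 of them at an unadjusted p under 0.05 and 3 with all NDEA libraries above the controls. These 3 were Fbln1, Gsn and Msln, with group means of 0.554 to 2.00 CPM in controls and 3.11 to 7.10 after NDEA and limma adjusted p of 0.176 to 0.191. Smooth muscle and pericyte markers (90.2 to 121 against 74.1 to 102 CPM, 0 of 5 called, Casq2 at 0) and endothelial markers (401 to 447 against 354 to 440 CPM, 0 of 13 called) overlapped between groups. Cholangiocyte markers, of the bile duct lining, were higher without overlap (11.1 to 20.8 against 27.5 to 43.2 CPM), with 0 of 3 tested called and Krt19 and Cdh6 among the markers at 0. Of 13 macrophage markers Gpnmb and Marco rose and Vsig4 fell, and their sum was 862 to 966 CPM against 919 to 1096, an overlap.

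The same question was asked of bone marrow, where 0 of the 28 tested genes were called by limma. The same held for all 9239 genes tested (0% called). At an unadjusted p under 0.05 stood 8 of the 28, against 14.5% of all genes. The estimates were above 0 for 10 and below 0 for 18, with a median log2 change of −0.15 against −0.10 over all genes, and for none of the 28 were control and NDEA libraries wholly apart, against 5.6% of all genes (2.57% above and 3.03% below). Estimates were highest for Lamc1 (1.30), Fbn1 (1.02), Col18a1 (0.88) and Mmp14 (0.70), and lowest for Dcn (−2.82). Without control 3, in which skeletal muscle markers were highest, 3 genes were called: Fbn1 higher, and Col1a1 and Myl9 lower, beside 318 genes in all.

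**Figure D3:**
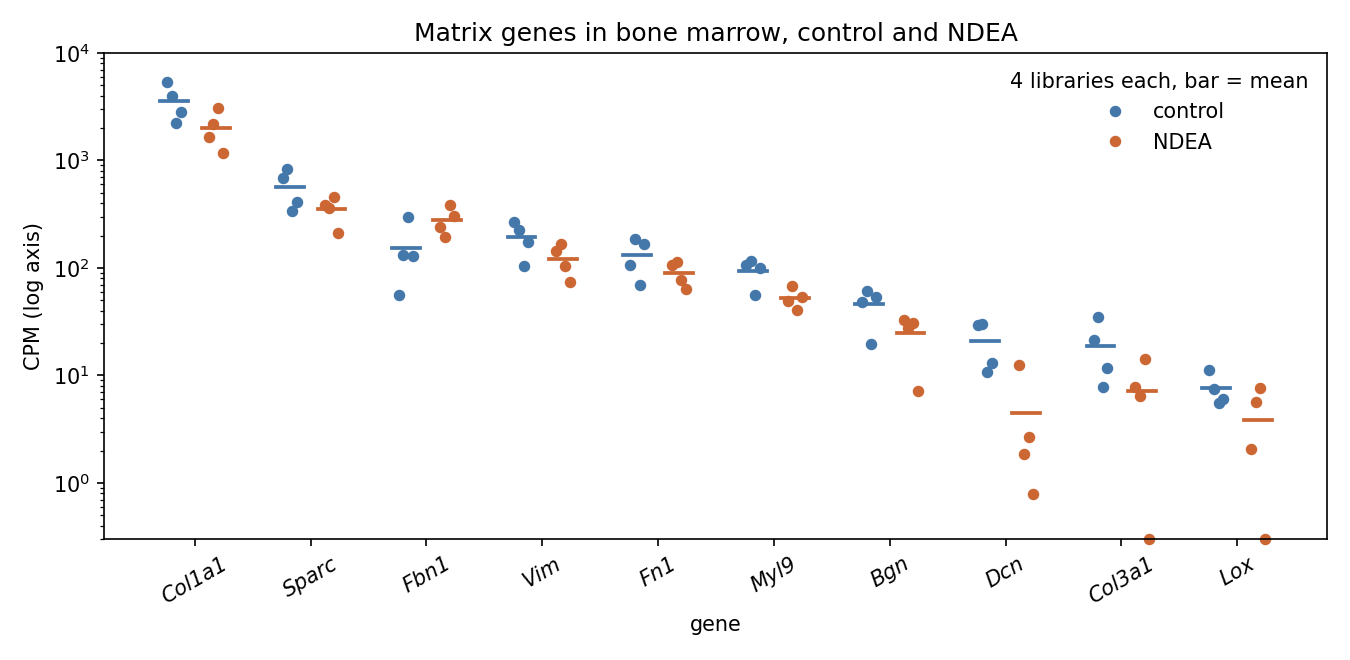
Levels of 10 matrix genes in bone marrow on a log axis of CPM, one point per library, with bars at the group means; libraries at 0 CPM are drawn at the lower edge. Control and NDEA points overlap for each gene, and of these 10 only Fbn1 has the higher mean after NDEA. Genes not drawn, among them Lamc1, Col18a1 and Mmp14, also had estimates above 0.

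Col1a1 was by far the most counted matrix gene of marrow. Controls held 5373, 4010, 2243 and 2809 CPM and NDEA libraries 1670, 2184, 3053 and 1177. The range of each group reached into the other, with NDEA 3 above controls 3 and 4. The log2 estimate was −0.84 (SE 0.30) with a limma adjusted p of 0.252, and without control 3 it was −1.05 (adjusted p = 0.0475, within 0.0475 to 0.999 over the alternatives). Col3a1 had 21.4, 34.9, 7.74 and 11.8 CPM in controls and 7.88, 6.37, 14.3 and 0 after NDEA. Its estimate of −2.51 (SE 1.09, adjusted p = 0.305) rested in part on the single library at 0. Col4a1 was close in the groups, at 102 ± 14.0 CPM in controls and 104 ± 13.1 after NDEA, with a 95% interval of −0.45 to 0.50 on the log2 scale. Nid1 was at 3.22 to 17.8 CPM in controls and at 6.95, 5.87, 6.23 and 0 after NDEA (estimate −1.73, limma adjusted p = 0.468).

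Fbn1 had an estimate above 0 in marrow, going from 56.2, 133, 299 and 130 CPM in controls to 242, 194, 385 and 306 after NDEA. Control 3 was as high as the NDEA libraries. The estimate was 1.02 (SE 0.35, limma adjusted p = 0.252), and without control 3 it was 1.37 (adjusted p = 0.0187, within 0.0187 to 0.999 over the alternatives). Sparc ran the other way, with 689, 827, 338 and 410 CPM in controls and 382, 365, 460 and 214 after NDEA (estimate −0.63, adjusted p = 0.334, limma). Fn1 was at 69.4 to 185 CPM in controls and 63.7 to 113 after NDEA.

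Dcn had the lowest estimate in marrow. Its controls held 29.8, 29.8, 10.9 and 13.0 CPM and its NDEA libraries 12.5, 1.84, 2.70 and 0.791. NDEA 1 lay within the control range and the other NDEA libraries lay below it. The log2 estimate was −2.82 (SE 0.84, 95% interval −4.58 to −1.06), with a limma adjusted p of 0.247. The related Bgn was at 19.8 to 61.5 CPM in controls and 7.12 to 33.1 after NDEA (estimate −1.02, adjusted p = 0.318), while Lum, which marrow holds at 51.1 ± 11.4 CPM, had an estimate of −0.21. Lox was at 11.3, 7.40, 5.56 and 6.08 CPM in controls and at 2.09, 5.70, 7.69 and 0 after NDEA (estimate −1.93, adjusted p = 0.401, limma).

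Vim was at 267, 225, 105 and 174 CPM in control marrow and at 143, 165, 105 and 74.7 after NDEA, an overlap with an estimate of −0.63 (limma adjusted p = 0.345). Myl9, a light chain of smooth muscle and platelet myosin, was at 107, 115, 55.8 and 101 CPM in controls and at 49.6, 67.4, 40.5 and 53.6 after NDEA. All but control 3 lay above every NDEA library, and the estimate of −0.80 (SE 0.28, adjusted p = 0.252) became −1.05 (adjusted p = 0.0300, within 0.0300 to 0.999 over the alternatives) without that library. Acta2 was too low to be tested in marrow alone, with 4, 14, 5 and 9 counts in controls and 0, 1, 0 and 0 after NDEA. Tgfb1 (59.0 ± 8.10 against 54.7 ± 9.13 CPM) and Ccn2 (77.2 ± 7.80 against 83.4 ± 11.5) had estimates of −0.14 and 0.09, and Pdgfrb of −0.17. None of the other matrix lists had a called gene in marrow. The estimate was below 0 for 13 of 16 tested genes of collagen processing (median −0.61) and for 11 of 14 matrix receptors (median −0.45).

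Of 4 marker lists of other cells shown here for marrow, the sums of 2 did not overlap between groups. The sums of the stellate, portal fibroblast, smooth muscle and pericyte, endothelial, hepatocyte, cholangiocyte, macrophage, myeloid and erythroid lists all overlapped in marrow. The part of the marker lists in the matrix values was not tested. Skeletal muscle markers summed to 145, 171, 547 and 221 CPM in controls and to 57.9, 63.7, 79.0 and 81.9 after NDEA, with no overlap. Megakaryocyte markers, of the platelet-forming cells, were likewise apart, at 495 to 798 CPM against 299 to 432. Osteoblast markers were at 2956, 1269, 985 and 1056 CPM in controls and at 881, 1093, 1091 and 794 after NDEA, so control 1, which also had the most Col1a1, stood alone. Reticular cell and adipocyte markers overlapped, at 1291 to 1957 against 1382 to 2027 CPM. No gene of these 4 lists was called, and none of their markers was at 0 throughout.

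**Figure D4:**
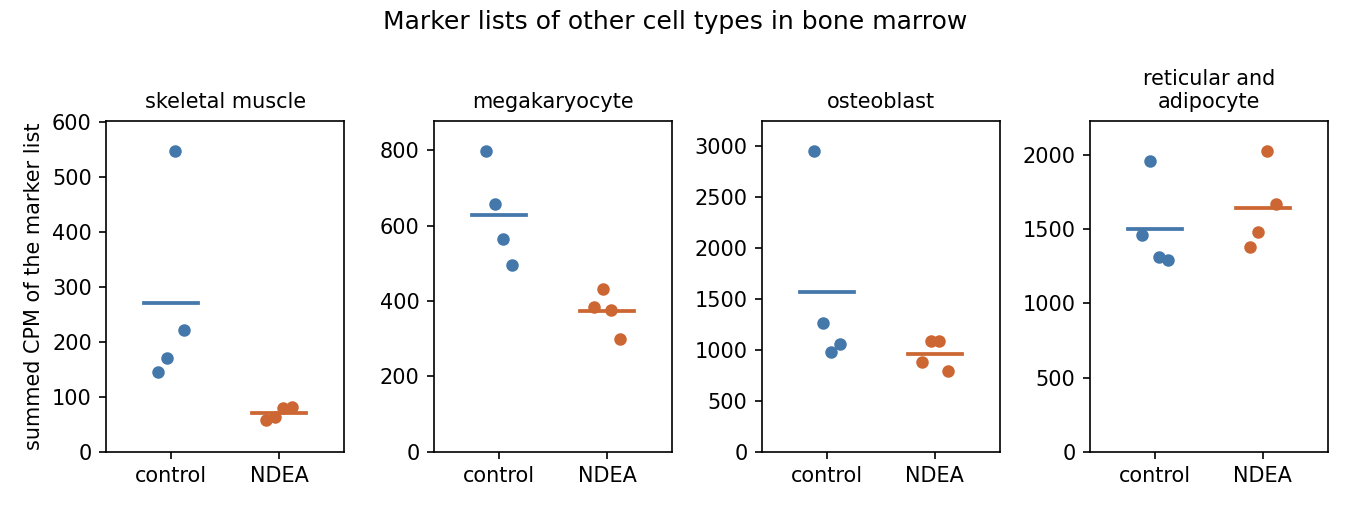
Summed CPM of 4 marker lists in bone marrow, 1 point per library, with a bar at each group mean and each axis from 0. Muscle and megakaryocyte sums do not overlap between groups, while osteoblast and reticular or adipocyte sums do.

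The NDEA effect was then compared between the tissues in a fit of all 16 libraries, which tested 35 of the 41 genes. It was higher in liver than in marrow for Vim, Dcn, Acta2 and Lox, 4 of 35, against 2.28% of 11261 genes (2.07% in that direction and 0.213% in the other). The median difference was 1.01 over the 35 and 0.32 over all genes. For Vim the difference was 2.04 on the log2 scale (SE 0.44, limma adjusted p = 0.0142) and for Dcn 3.98 (SE 0.89, adjusted p = 0.0178). For both the liver levels given above were higher after NDEA and the marrow means lower. For Acta2 the difference was 4.77 (SE 1.08, adjusted p = 0.0195) and for Lox 5.17 (SE 1.31, adjusted p = 0.0358), neither of which was called within a tissue. The Acta2 value rests on 1 count in the 4 NDEA marrow libraries against 32 in the controls, and its size depends on the prior count of the fit. Dcn was called under each of the 23 alternatives (adjusted p 0.00718 to 0.0469), Vim under all but that without liver control 4 (0.0522), Acta2 under 20 and Lox under 11. The count of called genes was 1 without liver control 4, 2 without marrow control 2 or without marrow NDEA 4, and 7 without marrow control 3. Of the 27 genes tested in both tissues, the estimates were higher in liver and lower in marrow for 15, higher in both for 8, lower in both for 2 and the reverse for 2. Col3a1 (difference 3.38, adjusted p = 0.0885) and Bgn (1.69, adjusted p = 0.0929) did not pass by limma. Fbn1 was one of the 8, and its difference between tissues was 0.11 (SE 0.58).

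The untreated tissues differed in which matrix genes they held. Of 31 genes tested between control liver and control marrow, 10 were higher in liver and 13 higher in marrow by limma, or 74.2%, against 66.1% of 10071 genes (32.8% and 33.4%). Higher in liver were Col18a1 (102-fold), Fn1 (13.0-fold), Col3a1 (12.7-fold), Nid1 (4.39-fold), Mmp14 (4.02-fold), Lamc1 (3.62-fold), Pdgfra (2.46-fold) and Bgn (1.76-fold), besides Lrat with 573 counts against 0 in marrow controls and Col14a1 with 291 against 4. Higher in marrow were Col1a1 (110-fold), Tgfb1 (14.0-fold), Myl9 (8.80-fold), Fbn1 (7.73-fold) and Vim (5.88-fold). So were Lum with 893 counts against 8 in liver controls, Loxl1 with 302 against 27 and Lox with 126 against 20. Lrat, Col14a1, Lum and Lox passed the filter only through the tissue where they are high, and Loxl1 also needed its marrow libraries. The size of these fitted differences depends on the prior count. Ccn2, Lamb1, Col4a1, Timp2 and Pdgfrb were higher in marrow by 1.98- to 4.51-fold. Dcn was at 16.5 ± 2.51 CPM in control liver and 20.9 ± 10.3 in control marrow, each scaled within its tissue. The fit, scaled across both tissues, gave a log2 difference of 0.09 (liver minus marrow, SE 0.37). By counts, Fn1 came first and Sparc second among these genes in control liver, and Col1a1 first and Sparc second in control marrow. Scaled by library totals alone, 7 genes were higher in liver and 15 in marrow, with Bgn, Lamc1 and Pdgfra no longer called, and the median of all genes shifted from −0.02 to −0.34.

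**Figure D5:**
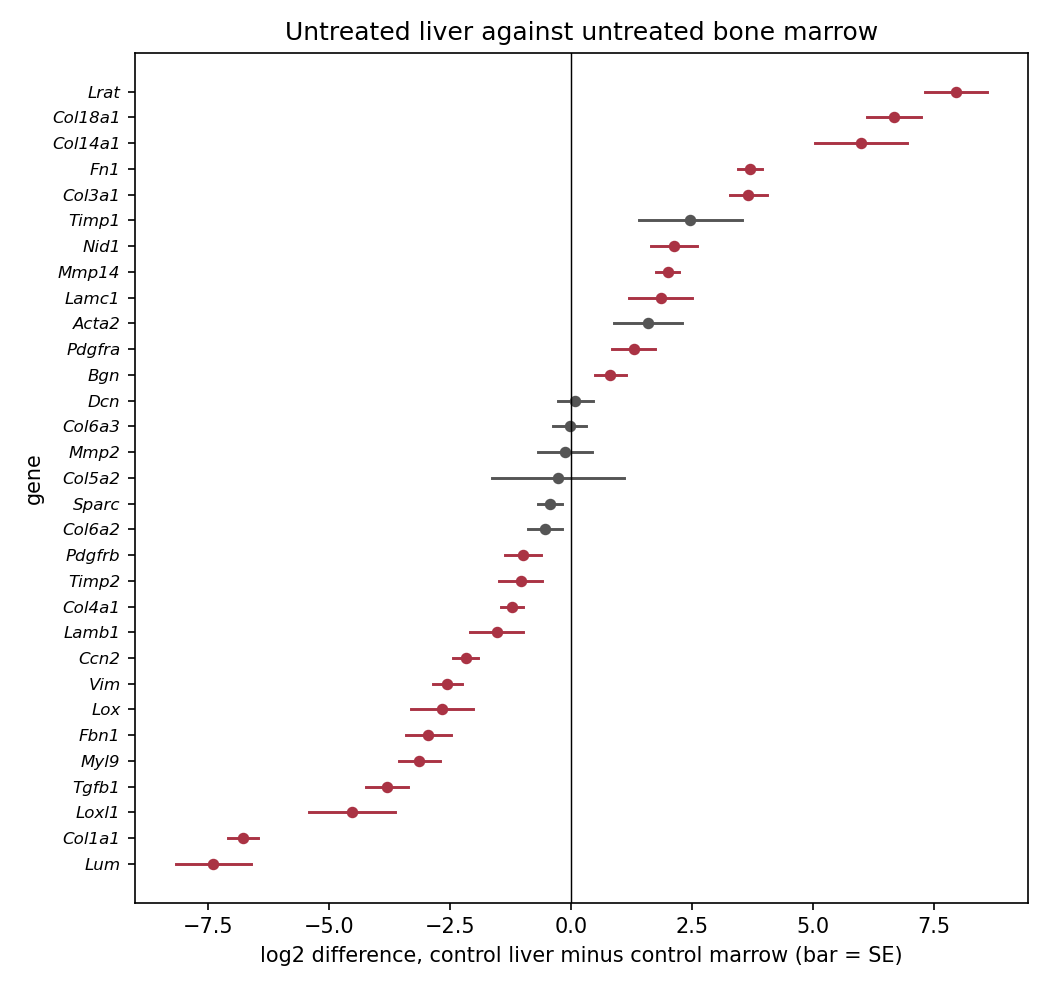
Log2 difference between control liver and control marrow for the 31 matrix genes tested, with bars of 1 SE and called genes in red. Fn1 and Col3a1 lie toward liver, Col1a1 and Tgfb1 toward marrow, and Dcn near 0. The places of Lrat, Col14a1, Lum, Lox and Loxl1, at few counts in the other tissue, depend on the prior count.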

How the data were processed

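Total RNA was sequenced with a 3′-end mRNA kit, per the labels' protocols; STAR and DESeq2 are named in the submitters' processing notes without versions. For the counting tool and genome build, the entry is: not given in the sources used here. No molecular identifier is named. The deposited table holds whole counts per gene. Its text was damaged: 12 broken lines were rejoined and 2127 records with commas in the description were realigned. The 16313 group totals that the authors deposited equalled the sums. From these counts limma 3.58.1 (R 4.3.3) fitted voom log2 CPM (prior count 0.5) with TMM scaling, two-sided, by tissue, with Benjamini-Hochberg adjustment over all tested genes at 0.05, and was tested on simulated data. Genes needed 15 counts in all and the filter level in 4 libraries. The 41 genes, other lists and motifs were chosen with earlier results of these data known. Genes called, or with groups apart, and Acta2, Col1a1, Col1a2, Tgfb1, Pdgfrb and Lrat are given library by library, and so are some others chosen after their values were seen. Some marker genes are not reported here.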

Additional observations from a re-analysis of the deposited data

Results flagged for a closer look

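Libraries far from the others of their group were looked for in 60 groups of 4 libraries of the named genes, of which chance marks about 1 in 20, and 3 stood out. In NDEA marrow, Nid1 was at 0 CPM in library 4 and at 5.87 to 6.95 in the others. In NDEA marrow, Dcn was at 12.514 CPM in library 1 and at 0.791 to 2.70 in the others. In NDEA liver, Sparc was at 367.25 CPM in library 2 and at 417 to 422 in the others, all of them above the controls.

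The NDEA effect differed between the tissues for 4 genes by limma's test of the difference, as liver minus marrow on the log2 scale: Lox at 5.165, Acta2 at 4.766, Dcn at 3.981 and Vim at 2.04.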

How the results depend on the processing

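The count of matrix genes higher in liver (6) was 2 in a fit of all 16 libraries and 1 after adding each library's mitochondrial share to the model, and the count lower (1) was 0 in both; the cause was not tested. Library totals alone gave 9 higher and 1 lower, with the split over all genes going from 277 higher and 362 lower to 390 and 239 and the median of all liver genes from 0.01 to 0.12. Leaving out 1 library gave 3 to 7 higher in liver, 0 to 3 called in marrow, and 1 to 7 with a tissue difference. Over all genes, the liver calls were 53 higher and 95 lower with the mitochondrial covariate, and fell to 167 higher without control 3; the fit of all 16 libraries called 225 lower. The marrow calls over all genes were 2 without a filter, 1 with the mitochondrial covariate, 69 in the fit of all 16 libraries and 318 without control 3. Those of the tissue difference were 102 without liver control 4, 163 without liver control 3 and 509 without marrow control 3.

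Among the genes recomputed under each alternative, which leave out others with estimates near 0, signs turned for Col4a1, Tgfb1, Ccn2 and Pdgfrb. Col4a1 in marrow (0.03) became −0.00075 with library totals, −0.0079 with quality weights, −0.033 with all 16 libraries, −0.017 with the mitochondrial covariate and −0.035 without NDEA 3 and 4, and ran from −0.054 to 0.12 with 1 library left out. Tgfb1 in marrow (−0.14) became 0.067 without NDEA 3 and 4. With 1 library left out, Tgfb1 in liver ran from −0.077 to 0.76, Ccn2 in marrow from −0.0012 to 0.16 and Pdgfrb in marrow from −0.35 to 0.026.

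Replicate numbers are shared by the groups. Within a tissue, deviations of control and NDEA libraries of the same number correlated by −0.00801 to 0.0102 in liver and −0.00519 to 0.0624 in marrow. Control and NDEA numbers were therefore not taken as pairs. Liver and marrow libraries of the same number were not compared in this way, and the labels do not say whether they share a rat. The fits across tissues took them as independent. With control liver and control marrow blocked by number, 10 genes were higher in liver and 13 in marrow. With a replicate block, 7 genes were higher in liver (Bgn added), 1 was called in marrow (Fbn1, adjusted p = 0.0249 by limma) beside 289 of all marrow genes, and 3 had a tissue difference. Within a tissue, a control library's own number was its best match among the NDEA libraries in 1 of 8 cases.

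Depth limits the low genes: Col5a1, Col4a2, Loxl1 and Tgfb1 in liver and Acta2 in marrow rest on few counts per library.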
